A study of Mus musculus with 11 samples.

Results

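Gene expression was compared between lacrimal glands of wild-type (WT) NOD mice and of NOD mice that lack *Ifnar1*, the gene for 1 chain of the type I interferon receptor. The NOD strain develops autoimmune inflammation of the lacrimal gland, the gland that secretes tears. The study describes its spontaneous occurrence as specific to males. The comparison rests on 6 of the 11 mice of the series, namely 3 WT males and 3 Ifnar1 KO males homozygous for the germline deletion allele em16, all on the NOD/ShiLtJ background and all untreated. A further 5 male NOD mice lacking the endosomal RNA sensor *Tlr7* were used only where they are named. Each mouse gave 1 library of RNA from a whole lacrimal gland, so every cell type of the gland is mixed in each value. The study gives the same age range in weeks for the WT and Tlr7 KO glands and, for the Ifnar1 KO glands, only a wider range that covers all its mice; no hour of collection was found. From expression profiles and gland histology, the authors judged 1 more Ifnar1 KO mouse to resemble WT and excluded it. The Ifnar1 KO group is therefore selected on an outcome related to those measured here, and that mouse was not analysed here.

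Type I interferons are cytokines released when cells sense nucleic acids of viruses or of the host. They bind a receptor made of the IFNAR1 and IFNAR2 chains, which activates the kinases JAK1 and TYK2 and then a complex that holds STAT2 and IRF9. This complex enters the nucleus, binds the interferon-stimulated response element (ISRE), whose core is a pair of GAAA repeats parted by any pair of bases (GAAA-NN-GAAA), and switches on the interferon-stimulated genes (ISGs). Interferon gamma, made by lymphocytes, acts through another receptor and a factor that binds the core TTCNNNGAA, and many genes answer to both cytokines.

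The libraries held between 20512315 and 27174764 estimated counts, and 54.0% to 65.8% of them came from 10 genes. All 6 held abundant transcripts of the lacrimal acinar proteins *Scgb2b2* (the secretoglobin chain was at 37623, 66848 and 44272 CPM in the WT glands and 56757, 59688 and 70033 CPM in the Ifnar1 KO glands) and *Lcn11*. Values are CPM, counts scaled to a common library total with TMM factors of edgeR, given in the order of mice 1, 2 and 3. A gene with an adjusted p under 0.05 in edgeR's quasi-likelihood test was called differentially expressed (DE). Log2 fold changes are Ifnar1 KO relative to WT, so negative values are lower in Ifnar1 KO glands.

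A few libraries stood apart. Skeletal muscle transcripts were present in WT 1 and WT 2 and nearly absent from the other 4, with the muscle actin *Acta1* at 96.4, 50.6 and 0.0308 CPM in WT and 0, 3.02 and 0.0473 CPM in Ifnar1 KO. Salivary-type transcripts were present in WT 3 and Ifnar1 KO 2 and, at a lower level, in Ifnar1 KO 1, with *Bpifa2* at 0.231, 1.12 and 2132 CPM in WT and 147, 1813 and 0.662 CPM in Ifnar1 KO. WT 2 was the WT gland nearest to the KO glands: it was the lowest WT gland for 1482 of the 1735 genes called lower in Ifnar1 KO (85.4%, against 47.9% of all tested genes). Ifnar1 KO 2 was the highest KO gland for 1212 of them (69.9%, against 31.2%). The part of these differences in the results below was not tested.

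Of 13937 genes tested, 2677 were DE (19.2%), 1735 lower (12.4%) and 942 higher (6.76%) in Ifnar1 KO glands. At least 2-fold changes were called for 1444 genes lower (10.4%) and 171 genes higher (1.23%). No adjusted p was below 0.00789 with 3 mice a group, and the calls hinged on single mice. Without WT 1 there were 10 genes lower and 3 higher, without WT 3 there were 100 lower and 21 higher, and without Ifnar1 KO 1 or Ifnar1 KO 3 there were none in edgeR (4383 and 3778 genes at an unadjusted p under 0.05). Without WT 2 the counts went up to 2819 lower and 1847 higher, and without Ifnar1 KO 2 they were 1151 and 439. In each of these fits 2676 or 2677 of the 2677 DE genes kept their sign at an unadjusted p under 0.05 in edgeR. Those genes were chosen in a fit that shares its mice with each of these fits. The split also hinged on scaling: TMM put 64.8% of the DE genes lower in Ifnar1 KO, whereas scaling by library size alone put 96.2% lower (1289 against 51) and shifted the median over all genes from -0.02 to -0.31 on the log2 scale.

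**Figure D1:**
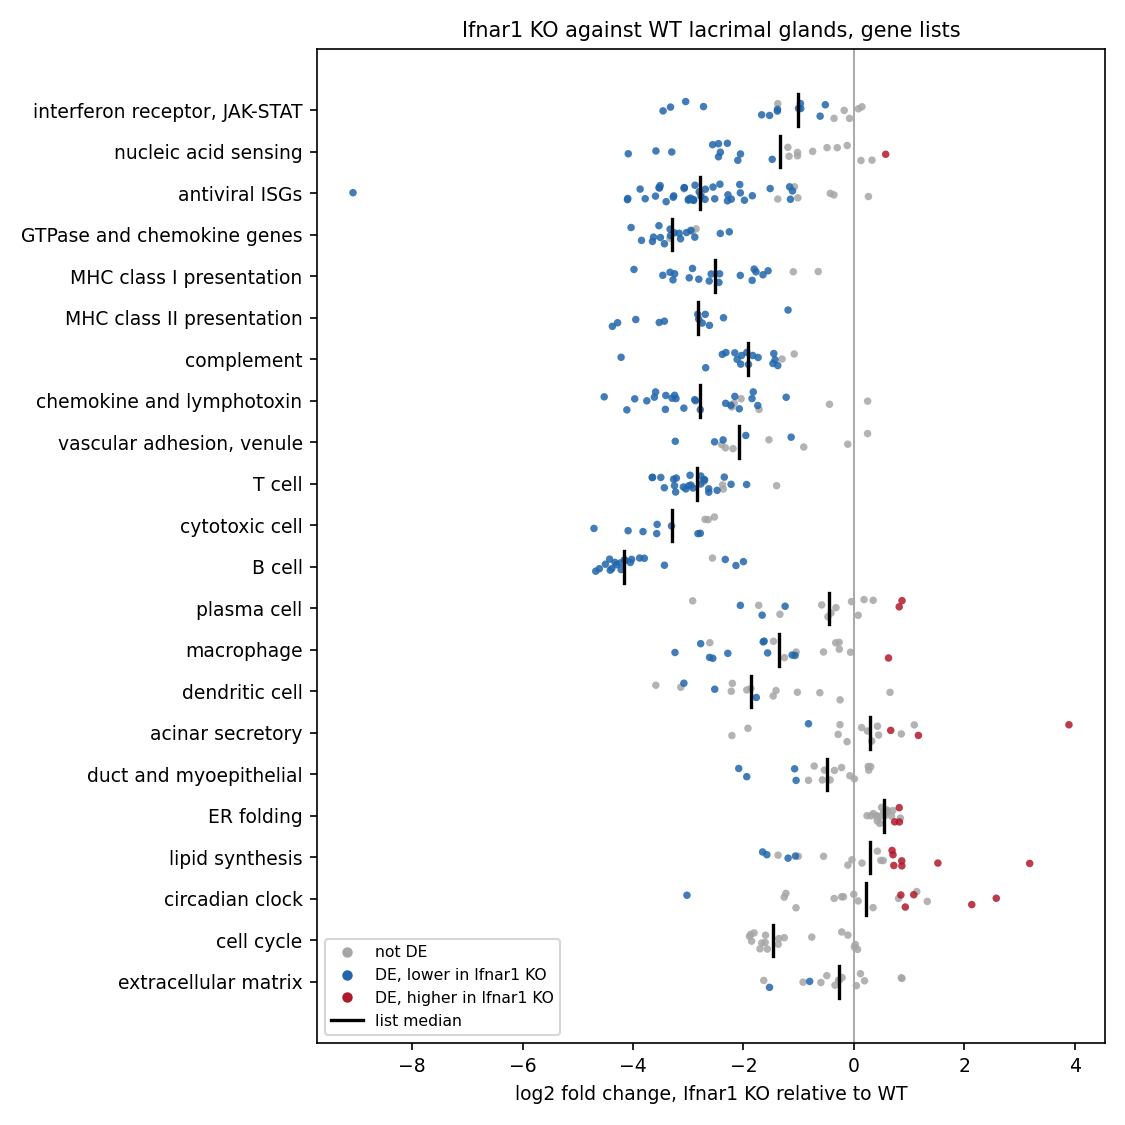
Log2 fold changes (Ifnar1 KO relative to WT, 3 mice each) of the tested genes of 22 lists, 1 point per gene, blue where DE and lower, red where DE and higher, grey where not DE; black bars mark list medians. The immune lists lie to the left, with medians of -4.15 for B cell genes and -2.78 for antiviral ISGs, and ER folding genes lie to the right with a median of 0.55.

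*Ifnar1* itself (chr16:91485238-91507441, GRCm38) was at 17, 11.6 and 16.9 CPM in the WT glands and 9.11, 9.91 and 10.9 CPM in the Ifnar1 KO glands. The groups did not overlap, and the difference was a log2 fold change of -0.61 (SE 0.17, adjusted p = 0.0485), so transcript remained in every KO gland. Reads over the gene do not report whether functional receptor is made. The call was near the threshold and was lost when library size alone was used for scaling (adjusted p = 0.101) and without any 1 mouse other than WT 2. *Ifnar2*, the partner chain, was at 11.7, 7.53 and 11.6 CPM in the WT glands and 4.65, 6.28 and 4.92 CPM in the Ifnar1 KO glands (log2 fold change -0.96, SE 0.22, adjusted p = 0.0285). Both receptor chains were thus lower in the KO glands, and WT 2 was the lowest WT gland for each.

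Downstream of the receptor, 13 of 19 tested receptor and JAK-STAT genes were lower and none higher in Ifnar1 KO glands (beside 12.4% and 6.76% of all genes). Of the 13, 7 were also lower when scaled by library size alone. *Irf9*, the DNA-binding part of the complex, was at 24.4, 11.6 and 20.7 CPM in WT and 5.02, 8.77 and 4.02 CPM in Ifnar1 KO (log2 fold change -1.67, SE 0.36, adjusted p = 0.0262). *Stat2* was at 54.8, 17.8 and 42.3 CPM in WT and 13.4, 20.4 and 10.5 CPM in Ifnar1 KO, where Ifnar1 KO 2 was above WT 2. It missed the threshold in edgeR (log2 fold change -1.38, SE 0.41, adjusted p = 0.0557), whereas DESeq2 called it (adjusted p = 0.00537). The feedback inhibitors of the pathway were lower as well. *Socs1*, which blocks JAK kinases, was at 2.81, 0.608 and 2.43 CPM in WT and 0.112, 0.367 and 0.0945 CPM in Ifnar1 KO (log2 fold change -3.32, SE 0.73, adjusted p = 0.0269), and *Usp18*, which displaces JAK1 from the receptor, was at 10.5, 2.06 and 6.75 CPM in WT and 0.855, 1.75 and 0.284 CPM in Ifnar1 KO (log2 fold change -2.72, SE 0.72, adjusted p = 0.0402). *Jak2*, a kinase of the interferon gamma receptor, and both chains of that receptor, *Ifngr1* and *Ifngr2*, fell by smaller amounts, with log2 fold changes of -1.38, -0.97 and -1.002. The kinases used by IFNAR, *Jak1* (-0.17, adjusted p = 0.379) and *Tyk2* (-0.08, adjusted p = 0.825), did not pass the test, nor did *Ifnlr1*, the type III interferon receptor chain (0.08). EdgeR called none of the 19 in the fits that left out WT 1 or 3 or Ifnar1 KO 1 or 3, while 13 or 14 were lower at an unadjusted p under 0.05, and it called 8 without Ifnar1 KO 2.

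Interferon transcripts themselves could not be compared. Of 20 interferon genes looked for, only *Ifng* was in the table, with 10, 0 and 1 counts in WT and 0, 1 and 0 counts in Ifnar1 KO, too few to test. Of the other 19, 17 were in the second deposited table, a separate count, with 0 counts in all 6 glands, and 2 were in neither table. With so few counts, no difference in interferon transcripts could be measured.

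Of 22 nucleic acid sensors and adaptors tested, 11 were lower and 1 was higher (median log2 fold change -1.34), beside 12.4% and 6.76% of all genes. *Irf7*, the transcription factor that amplifies type I interferon production and is itself an ISG, was at 34, 11.4 and 34.4 CPM in the WT glands and 1.11, 2.61 and 0.945 CPM in the Ifnar1 KO glands (log2 fold change -4.08, SE 0.55, adjusted p = 0.0207). Every KO gland was thus well below WT 2, the lowest WT gland. Among endosomal receptors, *Tlr7*, the sensor of single-stranded RNA, was at 3.31, 1.68 and 3.05 CPM in WT and 0.669, 0.897 and 0.284 CPM in Ifnar1 KO (log2 fold change -2.10, SE 0.45, adjusted p = 0.026), *Tlr9*, the sensor of unmethylated DNA, had a log2 fold change of -3.30 (adjusted p = 0.0311), and *Tlr13*, which senses bacterial ribosomal RNA, one of -2.56 (adjusted p = 0.0207). *Unc93b1*, the chaperone that brings these receptors to endosomes, was at 49.98, 18.7 and 46.5 CPM in WT and 9.74, 12.4 and 5.58 CPM in Ifnar1 KO (log2 fold change -2.05, SE 0.42, adjusted p = 0.0248). In the cytosol, the RNA helicase genes *Ddx58* (RIG-I, -1.48) and *Dhx58* (LGP2, -2.29) and the DNA sensing adaptor *Tmem173* (STING, -2.42) were lower, whereas *Ifih1* (MDA5) did not pass in edgeR (-1.02, adjusted p = 0.0903). DESeq2 called 14 of the 22 lower, *Ifih1* among them (adjusted p = 0.0473). The exception was *Mavs*, the mitochondrial adaptor of the RNA helicases, at 18.6, 18.1 and 19.4 CPM in the WT glands and 27.1, 27.6 and 29.1 CPM in the Ifnar1 KO glands (log2 fold change 0.58, SE 0.10, adjusted p = 0.0219), with all 3 KO glands above all 3 WT glands; it was not called when library size alone was used for scaling. No sensing gene was called without WT 1, Ifnar1 KO 1 or Ifnar1 KO 3, and 2 were called without WT 3.

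Antiviral ISGs are the targets that the receptor switches on through STAT2 and IRF9. Of 48 tested, 38 were lower in Ifnar1 KO (against 12.4% of all genes), none was higher, and their median log2 fold change was -2.78. The sum of their CPM was 742, 371 and 763 in the WT glands and 164, 246 and 155 in the Ifnar1 KO glands, so the KO glands kept between 24.7% and 39.3% of the WT mean. *Ifit1*, a binder of viral RNA, was at 10.2, 1.26 and 9 CPM in the WT glands and 0.297, 0.694 and 0.189 CPM in the Ifnar1 KO glands (log2 fold change -4.09, SE 0.84, adjusted p = 0.0247). *Isg15*, a ubiquitin-like modifier, was at 4.38, 1.07 and 5.92 CPM in the WT glands and 0.186, 0.571 and 0.236 CPM in the Ifnar1 KO glands (log2 fold change -3.51, SE 0.71, adjusted p = 0.0244). For both, WT 1 and WT 3 were high, WT 2 was several-fold lower, and each KO gland was below WT 2.

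*Ifi27l2a*, an ISG of the mitochondrial membrane, was among the ISGs of highest level, at 34.9, 26 and 72.9 CPM in the WT glands and 2.34, 6.36 and 2.98 CPM in the Ifnar1 KO glands (log2 fold change -3.52, SE 0.51, adjusted p = 0.0207), and here WT 2 stood closer to WT 1. *Lgals3bp*, a secreted glycoprotein, was at 48.9, 20.4 and 53.3 CPM in WT and 3.9, 9.42 and 2.41 CPM in Ifnar1 KO (log2 fold change -2.96, SE 0.55, adjusted p = 0.023), and *Bst2* (tetherin), which holds budding viruses at the cell surface, was at 20.6, 8.93 and 20.7 CPM in WT and 2.01, 4.86 and 1.89 CPM in Ifnar1 KO (log2 fold change -2.52, SE 0.46, adjusted p = 0.023). *Oas2*, an activator of RNase L, had no count in any KO gland against 2.46, 0.701 and 4.68 CPM in WT. Against a floor of 3 counts in each KO library this is at least 20.9-fold lower. Of the other RNase L activators, *Oas1a* (-2.91), *Oas1g* (-2.998) and *Oas3* (-3.87) were lower as well, but *Oas1a* and *Oas1g*, like *Ifit3* and *Ifit3b*, are close paralogs between which reads may have been split. Smaller falls were called for the membrane proteins *Ifitm3* (-2.06) and *Ifitm2* (-1.16) and for the nuclear body protein *Sp100* (-1.11). DESeq2 called 44 of the 48 antiviral ISGs lower, among them *Stat2*, *Tor3a*, *Mx2*, *Ifit1bl1* and *Ddx60*. The 10 without a call in edgeR were *Stat2*, *Tor3a*, *Mx2*, *Ifit1bl1*, *Xaf1*, *Ddx60*, *Adar*, *Eif2ak2*, *Pnpt1* and *Isg20*. Among them *Eif2ak2*, the kinase PKR, was at 12.3, 7.39 and 11.6 CPM in WT and 7.32, 9.34 and 6.66 CPM in Ifnar1 KO (-0.43, adjusted p = 0.214) and *Isg20*, an exonuclease also abundant in plasma cells, was at 51, 75.5 and 39.7 CPM in WT and 36.5, 44.1 and 48.9 CPM in Ifnar1 KO (-0.36, adjusted p = 0.305).

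Calls on the antiviral ISGs followed the mice left out. Without WT 1, Ifnar1 KO 1 or Ifnar1 KO 3 edgeR called none, without WT 3 it called 2, and without Ifnar1 KO 2 or WT 2 it called 36 and 46. At an unadjusted p under 0.05, between 39 and 46 of the 48 were lower whichever mouse was left out. With the mice richest in salivary-type transcripts left out (WT 3 and Ifnar1 KO 2; Ifnar1 KO 1, with fewer, stayed in), 14 were called. A pair of related families was looked at after their values had been seen. Of 12 tested genes of the Ifi200 family (nuclear DNA-binding proteins with a pyrin domain), 11 were lower, among them *Ifi204* (-2.49) and *Ifi209* (-3.64). Of 5 Schlafen genes 4 were lower, namely *Slfn5* and *Slfn8*, already counted in the list above, *Slfn1* and *Slfn2* (-3.37). These counts stand beside 12.4% of all genes called lower. Neither family had a call once WT 1 or 3 or Ifnar1 KO 1 or 3 was left out.

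**Figure D2:**
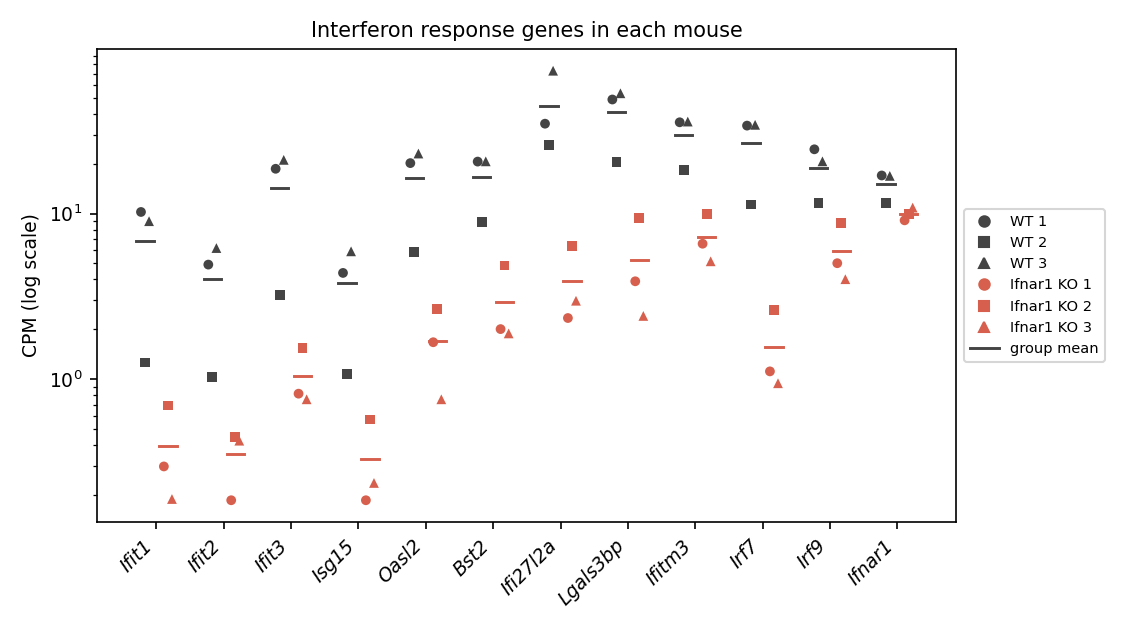
CPM (log scale) of 12 interferon response genes in each of the 3 WT (dark) and 3 Ifnar1 KO (red) glands; symbols give the mouse and bars the group mean. WT 2 (dark squares) is the lowest WT gland for every gene drawn, and Ifnar1 KO 2 (red squares) is the highest KO gland for all but *Ifnar1*; *Irf7* runs from 11.4 to 34.4 CPM in WT and from 0.945 to 2.61 CPM in Ifnar1 KO.

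Promoter sequences were read for these genes from RefSeq (GRCm38.p6), as windows of 250 bases before to 50 bases after a transcription start, and searched on both strands for the ISRE core GAAA-NN-GAAA and for TTCNNNGAA, whose matches may overlap. A window was at hand for 10460 of the 13937 tested genes. The ISRE core was found in 3.44% of all 32851 windows and in those of 415 of the tested genes (3.97%). It was found for 122 of 1284 genes called lower in Ifnar1 KO (9.50%), 18 of 702 called higher (2.56%), 18 of 40 antiviral ISGs (45%), 10 of 13 GTPase and chemokine genes described below (76.9%), 5 of 17 MHC class I genes, 2 of 15 B cell genes and none of 16 T cell genes. TTCNNNGAA was found in 8.30% of all windows, for 8 of 40 antiviral ISGs and for 6 of the 13 GTPase and chemokine genes. A match is a run of letters and not evidence of binding.

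Shown are the 250 bases before the start of 4 antiviral ISGs, chosen as those with the lowest adjusted p among DE members with an ISRE core in that stretch, to let the element be seen where it lies beside the genes that fell. Each reads 5′ to 3′ along the gene's own strand and ends at the base before the start. Matches of the ISRE core are in capitals (TTTC-NN-TTTC is the same element on the other strand), and matches of TTCNNNGAA are not marked. *Ifitm3* has its ISRE core matches after the start and is not shown. *Ifitm2* lies at chr7:140955962-140956211 (- strand), *Slfn8* at chr11:83020723-83020972 (- strand), *Ifit3* at chr19:34583279-34583528 (+ strand) and *Bst2* at chr8:71537473-71537722 (- strand).
Ifitm2: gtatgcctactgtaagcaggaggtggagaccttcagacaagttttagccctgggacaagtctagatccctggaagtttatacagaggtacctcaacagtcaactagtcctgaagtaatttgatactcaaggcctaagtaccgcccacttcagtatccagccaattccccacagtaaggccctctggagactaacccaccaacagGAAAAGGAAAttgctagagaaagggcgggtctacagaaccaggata
Slfn8: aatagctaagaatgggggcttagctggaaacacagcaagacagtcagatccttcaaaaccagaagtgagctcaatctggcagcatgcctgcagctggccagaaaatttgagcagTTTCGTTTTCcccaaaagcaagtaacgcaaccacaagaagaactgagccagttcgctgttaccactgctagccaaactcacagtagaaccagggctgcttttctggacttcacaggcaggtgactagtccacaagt
Ifit3: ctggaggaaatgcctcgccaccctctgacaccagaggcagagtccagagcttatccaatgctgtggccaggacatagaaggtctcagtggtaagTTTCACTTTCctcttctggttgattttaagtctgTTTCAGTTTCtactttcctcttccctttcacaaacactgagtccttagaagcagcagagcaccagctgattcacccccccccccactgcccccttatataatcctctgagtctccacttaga
Bst2: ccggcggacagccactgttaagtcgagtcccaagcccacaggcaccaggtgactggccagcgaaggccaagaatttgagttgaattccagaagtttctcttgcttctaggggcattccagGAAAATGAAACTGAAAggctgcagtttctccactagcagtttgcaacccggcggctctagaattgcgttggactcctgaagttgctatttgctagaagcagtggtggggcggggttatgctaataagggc

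The *Ifitm2* element ends 36 bases before the start. *Ifit3*, with 2 separate elements on the other strand, was at 18.6, 3.23 and 21.1 CPM in the WT glands and 0.818, 1.55 and 0.756 CPM in the Ifnar1 KO glands (log2 fold change -3.78, SE 0.71, adjusted p = 0.023). *Bst2* has 2 overlapping ISRE core matches, and 1 match of TTCNNNGAA overlaps the first of them. *Slfn8*, with a single element, was at 11.6, 2.71 and 9.34 CPM in WT and 0.632, 1.06 and 0.236 CPM in Ifnar1 KO (log2 fold change -3.59, SE 0.65, adjusted p = 0.023), and *Ifitm2* was at 15.3, 11.7 and 15.8 CPM in WT and 5.72, 7.67 and 5.72 CPM in Ifnar1 KO (log2 fold change -1.16, SE 0.18, adjusted p = 0.0212). These 4 genes were chosen among those called lower. Their log2 fold changes ran from -3.78 to -1.16, and their KO glands lay below all WT glands.

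Genes that answer to both type I interferon and interferon gamma were also lower. Of 20 tested GTPase and chemokine genes of this kind, 17 were DE, all lower in Ifnar1 KO (beside 12.4% of all genes). The median log2 fold change was -3.29. Their summed CPM was 509, 156 and 506 in WT and 30.4, 89.6 and 11.6 in Ifnar1 KO, with Ifnar1 KO 2 well above the other KO glands. *Cxcl9*, a chemokine that draws activated T cells, was at 41.9, 11.1 and 42.1 CPM in the WT glands and 1.04, 6.53 and 0.0473 CPM in the Ifnar1 KO glands (log2 fold change -3.63, SE 1.03, adjusted p = 0.0481), so that Ifnar1 KO 2 came nearest to WT 2; DESeq2 did not call it (adjusted p = 0.0612). *Cxcl10*, a second ligand of the same receptor, was at 7.84, 1.54 and 8.84 CPM in WT and 0.409, 0.734 and 0.0945 CPM in Ifnar1 KO (log2 fold change -3.85, SE 0.79, adjusted p = 0.0249). The guanylate-binding protein *Gbp2* was at 49.4, 18.1 and 52.3 CPM in WT and 2.83, 8.73 and 0.945 CPM in Ifnar1 KO (log2 fold change -3.25, SE 0.73, adjusted p = 0.0277), and the immunity-related GTPase *Igtp* was at 67.9, 19.6 and 72.6 CPM in WT and 1.64, 7.59 and 0.473 CPM in Ifnar1 KO (log2 fold change -4.03, SE 0.90, adjusted p = 0.0271). *Irf1*, the transcription factor of the interferon gamma response, was at 47.7, 18.2 and 45.2 CPM in WT and 6.09, 13.2 and 3.92 CPM in Ifnar1 KO (log2 fold change -2.25, SE 0.51, adjusted p = 0.0282). *Gbp4*, *Gbp8* and *Tgtp2* missed the threshold in edgeR (adjusted p = 0.0544, 0.0522 and 0.0609). DESeq2 called *Gbp4* and *Gbp8* (adjusted p = 0.0459 and 0.00473) but not *Tgtp2* (0.0681). Near-identical copies in these families may share reads. None of the 20 was called with WT 1 or 3 or Ifnar1 KO 1 or 3 left out, and 17 to 20 were lower at an unadjusted p under 0.05.

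Antigen presentation genes fell across both classes. MHC class I molecules show peptides from inside the cell to CD8 T cells. Of 20 tested genes of this route, 18 were lower and none higher (median log2 fold change -2.51), beside 12.4% and 6.76% of all genes. *B2m*, the shared light chain, was at 862, 399 and 778 CPM in the WT glands and 111, 277 and 102 CPM in the Ifnar1 KO glands (log2 fold change -2.06, SE 0.47, adjusted p = 0.0286), which made it one of the 5 most abundant DE genes that were lower. The heavy chains *H2-K1* (-2.92), *H2-D1* (-1.77) and *H2-Q7* (-3.98) fell, as did the peptide transporter *Tap1*, at 54.3, 16.8 and 52.5 CPM in WT and 4.31, 9.71 and 1.56 CPM in Ifnar1 KO (log2 fold change -2.98, SE 0.67, adjusted p = 0.0276), and the immunoproteasome subunit *Psmb8*, at 69.8, 28.8 and 70.6 CPM in WT and 4.35, 11.7 and 1.7 CPM in Ifnar1 KO (log2 fold change -3.25, SE 0.66, adjusted p = 0.0247). *Nlrc5*, the transactivator of class I genes, was at 25.3, 4.82 and 25.7 CPM in WT and 0.929, 4.16 and 0.425 CPM in Ifnar1 KO (log2 fold change -3.33, SE 0.88, adjusted p = 0.0396). The 2 without a call in edgeR were *Erap1*, a peptide-trimming enzyme (-1.10, adjusted p = 0.063), and *Tapbpl*, a peptide editor (-0.64, adjusted p = 0.0926). DESeq2 called 19 of the 20 lower, *Erap1* among them (adjusted p = 0.0174). The H2 heavy chains are near copies of one another, so counts of single chains are less certain than those of the list.

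MHC class II molecules show peptides from outside the cell to CD4 T cells and are made mainly by B cells, dendritic cells and macrophages. All 12 tested genes of this route were lower (beside 12.4% of all genes). *Cd74*, the invariant chain, was at 996, 354 and 989 CPM in the WT glands and 108, 218 and 55.8 CPM in the Ifnar1 KO glands (log2 fold change -2.62, SE 0.59, adjusted p = 0.0274), and *H2-Ab1*, a beta chain, was at 396, 135 and 352 CPM in WT and 34.6, 71.5 and 18.3 CPM in Ifnar1 KO (log2 fold change -2.83, SE 0.58, adjusted p = 0.0249). The steepest falls were those of *H2-Ob* (-4.37) and *H2-Oa* (-4.28), subunits of the editor H2-O found mainly in B cells, and the shallowest that of the lysosomal reductase *Ifi30* (-1.19). *Ciita*, the master regulator of class II genes, had a log2 fold change of -3.43 (adjusted p = 0.025). As these are whole glands, fewer cells of a type and less RNA per cell cannot be told apart for any of these lists. No class I or class II gene was called with WT 1 or 3 or Ifnar1 KO 1 or 3 left out, though all 12 class II genes stayed lower at an unadjusted p under 0.05 in each of the 6 fits.

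Complement genes were lower for 16 of 18 tested and higher for none (median log2 fold change -1.92), beside 12.4% and 6.76% of all genes. *C3*, the central component, was at 195, 102 and 178 CPM in the WT glands and 34.8, 42.9 and 28.9 CPM in the Ifnar1 KO glands (log2 fold change -2.15, SE 0.27, adjusted p = 0.0207), with every KO gland below every WT gland. The macrophage-derived subunits of C1q, *C1qa* (-2.32), *C1qb* (-2.11) and *C1qc* (-1.91), fell together, as did the proteases *C1ra* (-1.83) and *C1s1* (-2.05). *Cfb*, of the alternative pathway, had a log2 fold change of -2.03, and the regulator *Serping1* (-1.45) was lower as well. The largest fall was that of *Cr2* (-4.21), the complement receptor of B cells and follicular dendritic cells. *C5ar1* (-1.08, adjusted p = 0.102) and *Cfd* (-1.30, adjusted p = 0.104) had no call in edgeR. DESeq2 called 17 of the 18 lower, *Cfd* among them (adjusted p = 0.047) but not *C5ar1* (0.112). A single complement gene was called without WT 3 and none without WT 1, Ifnar1 KO 1 or Ifnar1 KO 3.

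Chemokine, chemokine receptor and lymphotoxin genes guide lymphocytes into tissue and arrange them in follicles. Of 29 tested, 23 were lower and none higher (median log2 fold change -2.78), beside 12.4% and 6.76% of all genes. *Cxcl13*, the ligand that attracts B cells to follicles, was at 53.4, 25 and 35.4 CPM in the WT glands and 2.45, 3.79 and 0.945 CPM in the Ifnar1 KO glands (log2 fold change -3.97, SE 0.48, adjusted p = 0.0207). Its receptor *Cxcr5* was at 20.03, 7.01 and 14.4 CPM in WT and 0.483, 1.22 and 0.0473 CPM in Ifnar1 KO (log2 fold change -4.52, SE 0.72, adjusted p = 0.0216). For this pair every KO gland lay far below the lowest WT gland, but *Cxcr5* was also chosen by a rule that required no overlap. *Ltb* (lymphotoxin beta), made by lymphocytes, was at 31, 11.3 and 26.5 CPM in WT and 1.26, 2.41 and 0.236 CPM in Ifnar1 KO (log2 fold change -4.11, SE 0.65, adjusted p = 0.0216), whereas *Ltbr*, its receptor on stromal and epithelial cells, was not called (0.25, adjusted p = 0.256). *Ccl20*, an epithelial ligand of *Ccr6*, was at 4.04, 3.93 and 7.4 CPM in WT and 0.483, 0.53 and 0.236 CPM in Ifnar1 KO (log2 fold change -3.59, SE 0.40, adjusted p = 0.0207), and *Ccr6* had a log2 fold change of -3.40 (adjusted p = 0.023). *Cxcl12*, a stromal chemokine, was at 20.03, 17.3 and 20.6 CPM in WT and 7.25, 8.32 and 9.26 CPM in Ifnar1 KO (log2 fold change -1.23, SE 0.14, adjusted p = 0.0207), and its receptor *Cxcr4* had a log2 fold change of -3.41. The monocyte chemokine *Ccl8* was at 81.6, 36.9 and 54.6 CPM in WT and 7.47, 21.9 and 5.15 CPM in Ifnar1 KO (log2 fold change -2.32, SE 0.55, adjusted p = 0.0312). Of the vascular adhesion and high endothelial venule list, 5 of 12 tested were lower (beside 12.4% of all genes). Among them was *Vcam1*, the endothelial ligand for lymphocyte integrins, at 24.8, 14 and 26 CPM in WT and 1.86, 4.2 and 0.756 CPM in Ifnar1 KO (log2 fold change -3.23, SE 0.53, adjusted p = 0.0216). Without WT 2 edgeR called 8 vascular genes, without WT 3 it called 3 chemokine-list genes and no vascular gene, and without WT 1, Ifnar1 KO 1 or Ifnar1 KO 3 none of either.

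Genes of B cells supplied 11 of the 15 largest falls among the DE genes of at least 10 CPM whose groups did not overlap. Among them were *Fcer2a*, *Fcrla*, *Cxcr5*, *Ms4a1*, *Fcrl1*, *Fcmr*, *Tnfrsf13c*, *Cd79b*, *Cd22* and *Bank1*, with log2 fold changes from -4.67 to -4.30. *Cd79b*, a signalling chain of the B cell receptor, was at 58.4, 19.8 and 40.7 CPM in the WT glands and 1.9, 3.06 and 0.662 CPM in the Ifnar1 KO glands (log2 fold change -4.38, SE 0.57, adjusted p = 0.0207), and *Ms4a1* (CD20) at 26.6, 8.09 and 24.1 CPM in the WT glands and 0.855, 1.67 and 0 CPM in the Ifnar1 KO glands (log2 fold change -4.50, SE 0.83, adjusted p = 0.023). The other 4 of the 15 were the class II gene *H2-Ob*, the sulfotransferase *Chst3* at 18.8, 5.19 and 15.2 CPM in WT and 0.557, 1.14 and 0.142 CPM in Ifnar1 KO (log2 fold change -4.38, SE 0.68, adjusted p = 0.0211), the aspartic protease *Napsa* at 34.1, 8.6 and 29.3 CPM in WT and 0.855, 2.33 and 0.662 CPM in Ifnar1 KO (log2 fold change -4.22, SE 0.65, adjusted p = 0.021), and *Des*, the muscle intermediate filament, at 24.9, 23.7 and 3.85 CPM in WT and 0.818, 1.3 and 0.378 CPM in Ifnar1 KO (log2 fold change -4.36, SE 0.78, adjusted p = 0.0227), which was high in the pair of WT glands with muscle transcripts. Of 21 B cell genes tested, edgeR called 20 lower (beside 12.4% of all genes) and the remaining one, *Vpreb3*, had an adjusted p of 0.0609. DESeq2 called all 21 lower. Summed B cell CPM was 567, 163 and 494 in WT and 25.1, 47.7 and 8.79 in Ifnar1 KO, the KO glands keeping 2.16% to 11.7% of the WT mean. Without WT 3 edgeR called 1 of the 21 and without WT 1, Ifnar1 KO 1 or Ifnar1 KO 3 none, while all 21 were lower at an unadjusted p under 0.05 in each of these fits.

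T cell genes were lower for 24 of 28 tested (median log2 fold change -2.84), beside 12.4% of all genes. *Cd4*, the helper coreceptor, was at 25.4, 8.23 and 16 CPM in WT and 1, 4.32 and 0.662 CPM in Ifnar1 KO (log2 fold change -3.04, SE 0.70, adjusted p = 0.0295) and *Cd3g*, of the T cell receptor complex, at 13, 4.39 and 12.4 CPM in WT and 0.818, 2.04 and 0.236 CPM in Ifnar1 KO (log2 fold change -3.25, SE 0.68, adjusted p = 0.0253). *Cd8a* (-2.38, adjusted p = 0.0902), the cytotoxic coreceptor, and *Foxp3*, the regulator of regulatory T cells (-1.40, adjusted p = 0.184), did not pass in edgeR. Both were higher in Ifnar1 KO 2 than in WT 2. DESeq2 called 27 of the 28 lower, *Cd8a* among them (adjusted p = 0.0358) but not *Foxp3* (0.184). Of 11 cytotoxic cell genes tested 8 were lower (beside 12.4% of all genes). Among them was the natural killer receptor *Ncr1*, at 1.88, 0.795 and 1.73 CPM in WT and 0.0372, 0.204 and 0 CPM in Ifnar1 KO (log2 fold change -4.09, SE 0.80, adjusted p = 0.0235). None of the T or cytotoxic cell genes was called with WT 1 or 3 or Ifnar1 KO 1 or 3 left out. In these fits 24 to 26 of the 28 T cell genes and 8 to 11 of the 11 cytotoxic cell genes were lower at an unadjusted p under 0.05. Of 18 cell cycle genes, with a median log2 fold change of -1.47, edgeR called none (5 lower at an unadjusted p under 0.05), but 8 lower without WT 2, and DESeq2 called 3 lower. *Mki67*, the proliferation marker, was at 8.5, 2.29 and 10.1 CPM in WT and 1.93, 3.51 and 0.992 CPM in Ifnar1 KO (log2 fold change -1.70, SE 0.61, adjusted p = 0.0867).

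Among plasma cell genes, 3 of 16 tested were lower and 2 higher (beside 12.4% and 6.76% of all genes), and their median log2 fold change was -0.44 against -4.15 for B cell genes; the difference between the lists was not tested. *Jchain*, which joins secreted IgA and IgM, was at 359.8, 376 and 309 CPM in the WT glands and 207, 385 and 243 CPM in the Ifnar1 KO glands (-0.32, adjusted p = 0.38), and *Igha*, the IgA heavy chain, was at 1434, 1089 and 1311 CPM in the WT glands and 911, 1693 and 1120.3 CPM in the Ifnar1 KO glands (-0.04, adjusted p = 0.927). For both, the groups overlapped and Ifnar1 KO 2 lay above all WT glands. *Ighm*, the IgM chain, was at 376, 244 and 338 CPM in WT and 30.6, 93.1 and 3.02 CPM in Ifnar1 KO, with no overlap but a wide KO spread (log2 fold change -2.92, SE 0.97, adjusted p = 0.0713 in edgeR). DESeq2 called *Ighm* lower (adjusted p = 0.0453). *Ighg2b* was lower, at 79.8, 52.5 and 112 CPM in WT and 17.5, 44.5 and 15.4 CPM in Ifnar1 KO (log2 fold change -1.66, SE 0.45, adjusted p = 0.0427), as were *Slamf7* (-2.06) and *Mzb1* (-1.24), a chaperone of antibody secretion. The higher pair, *Sdc1* (0.82, adjusted p = 0.0207) and *Derl3* (0.87, adjusted p = 0.04), are genes that gland epithelium also expresses, and neither was called when library size alone was used for scaling. *Bcl6*, the transcription factor of germinal centre B cells that is also made in many other tissues, had the smallest adjusted p of all genes, at 31.4, 41.5 and 34.3 CPM in the WT glands and 6.84, 5.96 and 7.47 CPM in the Ifnar1 KO glands (log2 fold change -2.40, SE 0.15, adjusted p = 0.00789); it was singled out after its values were seen. None of the plasma cell genes was called with WT 1 or 3 or Ifnar1 KO 1 or 3 left out, and 5 were lower without WT 2 or without Ifnar1 KO 2.

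**Figure D3:**
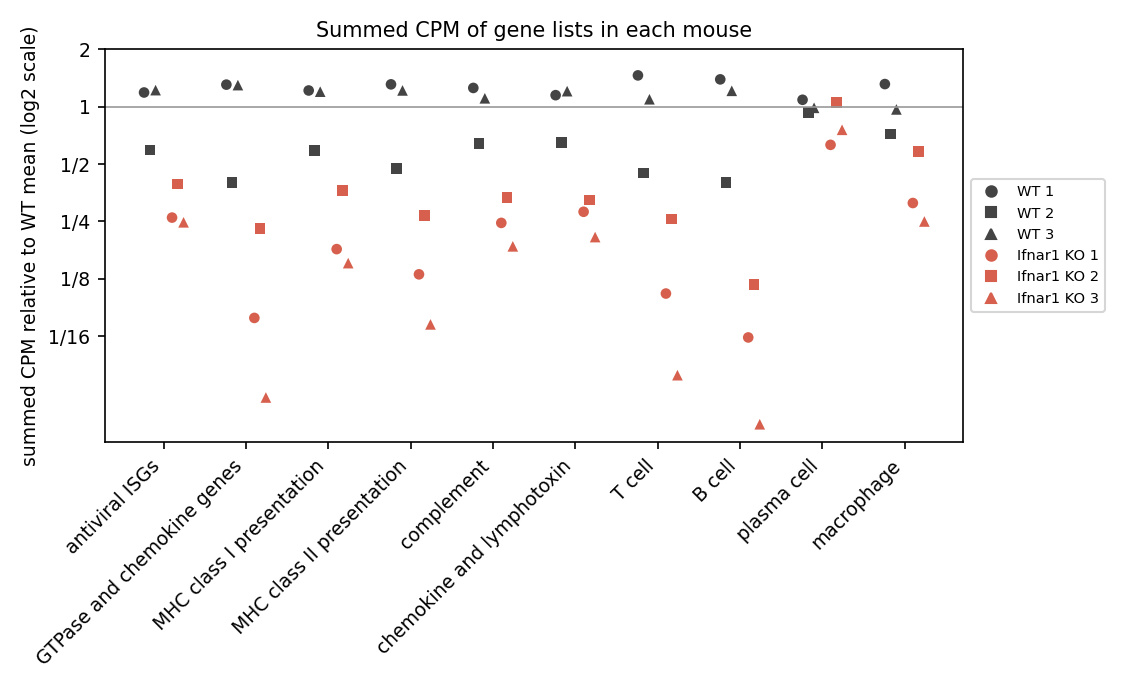
Summed CPM of the tested genes of 10 lists in each gland, relative to the mean of the 3 WT glands (log2 scale; dark WT, red Ifnar1 KO, symbols give the mouse). The WT and KO glands separate for each list but the plasma cell list, where Ifnar1 KO 2 lies at 105% of the WT mean; B cell sums in KO glands lie between 2.16% and 11.7%.

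Most myeloid genes had estimates below 0, and fewer were called. Of 20 macrophage genes tested, 10 were lower and 1 higher (beside 12.4% and 6.76% of all genes). Estimates were below 0 for 19 of the 20, and the median log2 fold change was -1.36. *Lyz2*, lysozyme of macrophages and neutrophils, was at 299, 165 and 206 CPM in the WT glands and 56.1, 122 and 39.1 CPM in the Ifnar1 KO glands (log2 fold change -1.62, SE 0.43, adjusted p = 0.0408), and *Fcgr1*, the high-affinity IgG receptor and an interferon target, was at 7.88, 3.18 and 7.61 CPM in WT and 0.855, 1.84 and 0.331 CPM in Ifnar1 KO (log2 fold change -2.61, SE 0.58, adjusted p = 0.0272). *Siglec1*, a sialic acid receptor induced by type I interferon, was at 3.15, 1.31 and 2.31 CPM in WT and 0.186, 0.734 and 0.0473 CPM in Ifnar1 KO (log2 fold change -2.77, SE 0.74, adjusted p = 0.0404). Among the 9 macrophage genes without a call in edgeR were *Mrc1* (-0.33, adjusted p = 0.38), *Cd163* (-0.26, adjusted p = 0.481) and *Folr2* (-0.55, adjusted p = 0.278). The higher gene was *Mertk*, a receptor for dying cells, at 5.84, 5.7 and 4.71 CPM in WT and 7.58, 8.85 and 8.7 CPM in Ifnar1 KO (log2 fold change 0.63, SE 0.16, adjusted p = 0.0344). *Mertk* was not called when library size alone was used for scaling. Of 15 dendritic cell genes edgeR called *Bst2*, *Ccr7* (-3.08) and *Flt3* (-1.77) lower (beside 12.4% of all genes), with 11 lower at an unadjusted p under 0.05 and 7 called by DESeq2. Their estimates were below 0 for 14 of the 15. Of 3 neutrophil genes tested none was called by edgeR (1 at an unadjusted p under 0.05, 1 by DESeq2). No macrophage or dendritic cell gene was called with WT 1 or 3 or Ifnar1 KO 1 or 3 left out, and 11 dendritic cell genes were lower without WT 2 and 6 without Ifnar1 KO 2.

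Genes of the gland's own secretory products made up many of the largest rises. Of 15 genes with the largest rises among DE genes of at least 10 CPM without overlap, 5 were secretoglobins, small secreted lipid-binding proteins encoded on chromosome 7, and 2 were exocrine gland-secreted peptides (Esp), pheromone peptides shed into tears and encoded on chromosome 17. *Scgb2b12* was at 548, 1758 and 301 CPM in the WT glands and 9866, 24139.7 and 12449 CPM in the Ifnar1 KO glands (log2 fold change 4.16, SE 0.76, adjusted p = 0.0229) and *Scgb2b15* at 3421, 4227 and 2301 CPM in the WT glands and 17165, 26795 and 20509 CPM in the Ifnar1 KO glands (log2 fold change 2.70, SE 0.36, adjusted p = 0.0207). *Scgb2b17* was at 374, 446 and 247 CPM in WT and 1919, 2998 and 2206 CPM in Ifnar1 KO (log2 fold change 2.74, SE 0.31, adjusted p = 0.0207). *Scgb1b21* (3.10) and *Scgb2b19* (3.08) were also higher. The rule that chose these 5 required that the groups not overlap. The 2 most abundant secretoglobins, *Scgb2b2* (0.33, adjusted p = 0.545) and *Scgb1b2* (0.25, adjusted p = 0.635), had no call. *Scgb3a1*, an airway-type secretoglobin, was lower (-2.75, adjusted p = 0.0301). Over the family, 6 of 23 tested genes were higher and 1 lower (beside 6.76% and 12.4% of all genes), with a median of 0.60. Members are near copies and neighbours, so reads may have been split among them.

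Among the Esp genes 4 of 13 tested were higher and 1 lower (beside 6.76% and 12.4% of all genes). *Esp1*, a male tear pheromone, was at 4, 5.09 and 1.82 CPM in the WT glands and 22.1, 18.1 and 120.5 CPM in the Ifnar1 KO glands (log2 fold change 3.90, SE 0.83, adjusted p = 0.0259) and *Esp36* at 0.308, 1.68 and 0.308 CPM in the WT glands and 30.9, 4.9 and 45.8 CPM in the Ifnar1 KO glands (log2 fold change 5.25, SE 0.98, adjusted p = 0.023). The rise in both was uneven among KO glands, with Ifnar1 KO 2 the lowest of them. The KO glands lay closer together for *Esp3*, at 15.7, 16.2 and 23 CPM in WT and 57.8, 69.9 and 78.7 CPM in Ifnar1 KO (log2 fold change 1.91, SE 0.19, adjusted p = 0.0207), whereas *Esp23* was lower, at 6.23, 24.1 and 26.9 CPM in WT and 2.56, 1.84 and 5.2 CPM in Ifnar1 KO (log2 fold change -2.59, SE 0.60, adjusted p = 0.0295). Both families were grouped after their values had been seen. Without WT 1 edgeR called 1 secretoglobin and no Esp gene, without WT 3 it called 3 and 1, and without Ifnar1 KO 1 or Ifnar1 KO 3 none. Without WT 2, 14 secretoglobins and 10 Esp genes were higher.

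Of the 16 acinar secretory genes tested, 3 were higher (*Esp1*, *Pigr* and *Bhlha15*) and 1 lower, beside 6.76% and 12.4% of all genes. The median was 0.29 (0.04 with library size alone), and DESeq2 called 5 higher and 1 lower. *Pigr*, the receptor that carries IgA across the epithelium, was at 87.7, 109 and 77.5 CPM in the WT glands and 188, 254 and 174 CPM in the Ifnar1 KO glands (log2 fold change 1.17, SE 0.20, adjusted p = 0.0225). *Bhlha15* (MIST1), the transcription factor of secretory cells, was at 502, 580.3 and 489 CPM in WT and 719, 804 and 974 CPM in Ifnar1 KO (log2 fold change 0.67, SE 0.19, adjusted p = 0.0499), but was not called when library size alone was used for scaling. *Lpo*, lactoperoxidase of tears, was one of the 5 most abundant DE genes that were higher, at 2659, 1179.7 and 1527 CPM in the WT glands and 4804, 5481 and 5469 CPM in the Ifnar1 KO glands (log2 fold change 1.55, SE 0.34, adjusted p = 0.0265), and was not called with library size alone (adjusted p = 0.0648). Also among these 5 was *Gm42418*, at 916, 1119.6 and 797 CPM in WT and 2421, 1908 and 2507 CPM in Ifnar1 KO (log2 fold change 1.27, SE 0.23, adjusted p = 0.0229), an annotated gene that overlaps a ribosomal RNA repeat, whose level may track leftover ribosomal RNA. Lactoferrin (*Ltf*, -0.28, adjusted p = 0.395), the water channel *Aqp5* (0.45, adjusted p = 0.11) and lysozyme (*Lyz1*, 1.10, adjusted p = 0.0883) had no call in edgeR. DESeq2 called *Lyz1* higher (adjusted p = 0.0184). Of the other genes with the largest rises, *Gm14135* (3.46), *Gm21903* (1.998) and *Gm11331* (1.98) are gene models named by number only. The secreted protein gene *Sval3* was at 31.8, 53.1 and 28.9 CPM in WT and 119.7, 223 and 165 CPM in Ifnar1 KO (log2 fold change 2.16, SE 0.31, adjusted p = 0.0207) and the uroplakin gene *Upk1a* at 2.65, 6.36 and 4.65 CPM in WT and 18.4, 17.9 and 18.6 CPM in Ifnar1 KO (log2 fold change 2.01, SE 0.28, adjusted p = 0.0207). None of the 16 acinar genes was called with WT 1 or 3 or Ifnar1 KO 1 or 3 left out, and 5 were higher without WT 2 and 2 without Ifnar1 KO 2.

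Some keratins of duct and myoepithelial cells were lower. *Krt14*, of basal and myoepithelial cells, was at 19.2, 16.4 and 16.1 CPM in the WT glands and 7.73, 9.14 and 8.22 CPM in the Ifnar1 KO glands (log2 fold change -1.04, SE 0.13, adjusted p = 0.0207). *Krt17* (-1.07), *Krt19* (-2.08) and the mucin *Muc1* (-1.94) were lower too, 4 of 16 tested in all (beside 12.4% of all genes). *Krt8* (0.31, adjusted p = 0.18) and *Epcam* (-0.07, adjusted p = 0.734), general epithelial genes, had no call. One of the 16 was called without WT 3, 2 without Ifnar1 KO 2, 8 without WT 2 and none without WT 1, Ifnar1 KO 1 or Ifnar1 KO 3. Folding genes of the endoplasmic reticulum, which serve secretory cells, had estimates above 0 for all 20 tested (median 0.55, or 0.27 with library size alone). EdgeR called only *Sel1l* (0.74), *Herpud1* (0.82) and *Dnajb9* (0.83), beside 6.76% of all genes called higher. At an unadjusted p under 0.05, 14 were higher. DESeq2 called 10, the fit of all 11 mice 18, the fit without WT 2 called 9 and library size alone none. *Herpud1*, of the pathway that removes misfolded proteins, was at 302, 276 and 274 CPM in WT and 495, 486 and 525 CPM in Ifnar1 KO (log2 fold change 0.82, SE 0.15, adjusted p = 0.0229). The main chaperone *Hspa5* (BiP) was at 597, 619 and 595 CPM in WT and 735, 980.2 and 1058 CPM in Ifnar1 KO (0.61, adjusted p = 0.0672). None was called with WT 1 or 3 or Ifnar1 KO 1 or 3 left out.

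Lipid synthesis genes differed in both directions. Of 20 tested, 7 were higher and 4 lower (beside 6.76% and 12.4% of all genes). The median was 0.29, or -0.05 with library size alone, so the list as a whole had no direction. Among the higher genes, *Thrsp*, a lipogenic regulator, was at 5.61, 0.514 and 3.64 CPM in the WT glands and 26.8, 30.8 and 32.9 CPM in the Ifnar1 KO glands (log2 fold change 3.19, SE 0.60, adjusted p = 0.023). *Dgat2*, which makes triglycerides, was at 36.3, 30.9 and 23.4 CPM in the WT glands and 72.7, 84.8 and 103 CPM in the Ifnar1 KO glands (log2 fold change 1.52, SE 0.20, adjusted p = 0.0207), and *Acly*, which supplies acetyl-CoA, was at 64, 68.2 and 58.1 CPM in WT and 111, 97.9 and 98.5 CPM in Ifnar1 KO (log2 fold change 0.69, SE 0.12, adjusted p = 0.0225). *Fasn* (0.87), *Me1* (0.71), the regulator *Srebf1* (0.87) and the sterol pathway enzyme *Hmgcs1* (0.72) also rose. The lower genes were the elongases *Elovl5* (-1.57) and *Elovl6* (-1.65) and the sterol synthesis enzymes *Fdft1* (-1.06) and *Sqle* (-1.19). With library size alone only *Dgat2*, *Thrsp*, *Elovl5* and *Elovl6* were called, without Ifnar1 KO 2 there were 4 higher and 3 lower, without WT 3 there was 1 call, and without WT 1, Ifnar1 KO 1 or Ifnar1 KO 3 there were none. Of 10 adipocyte genes, which mark fat attached to a gland, edgeR called none (2 lower at an unadjusted p under 0.05) and DESeq2 1.

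Clock genes differed in both directions. *Dbp*, an output of the clock, was at 19.6, 2.2 and 7.64 CPM in the WT glands and 57.2, 56.8 and 62.8 CPM in the Ifnar1 KO glands (log2 fold change 2.58, SE 0.63, adjusted p = 0.0335), and *Nr1d1*, the repressor of the clock activator *Arntl*, was at 9.07, 3.04 and 6.32 CPM in the WT glands and 19.6, 33 and 29.1 CPM in the Ifnar1 KO glands (log2 fold change 2.14, SE 0.38, adjusted p = 0.0225). *Arntl* itself was at 2.15, 12.6 and 2.68 CPM in the WT glands and 0.966, 0.612 and 0.52 CPM in the Ifnar1 KO glands (log2 fold change -3.02, SE 0.75, adjusted p = 0.0344). The KO glands lay close together for *Dbp*, and WT 2 was the extreme WT gland for all 3 genes. *Cry2*, a core repressor, was at 16.6, 15.8 and 16.7 CPM in WT and 32.4, 25.6 and 30.8 CPM in Ifnar1 KO (log2 fold change 0.85, SE 0.12, adjusted p = 0.0207), *Tef* had a log2 fold change of 1.09 and *Bhlhe41* one of 0.93, all called, whereas *Per1* (0.08), *Per2* and *Clock* (0.35) were not. In all, 5 of 18 tested were higher and 1 lower (beside 6.76% and 12.4% of all genes). The list median changed sign with scaling (0.21, or -0.03 with library size alone). With library size alone *Nr1d1* was the only one still called higher, and 2 clock genes were called lower. The genes follow the hour of day, and no collection hour was found in the sources used here, so hour and genotype cannot be told apart. No clock gene was called with WT 1 or 3 or Ifnar1 KO 1 or 3 left out, and 4 were higher and none lower without Ifnar1 KO 2.

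**Figure D4:**
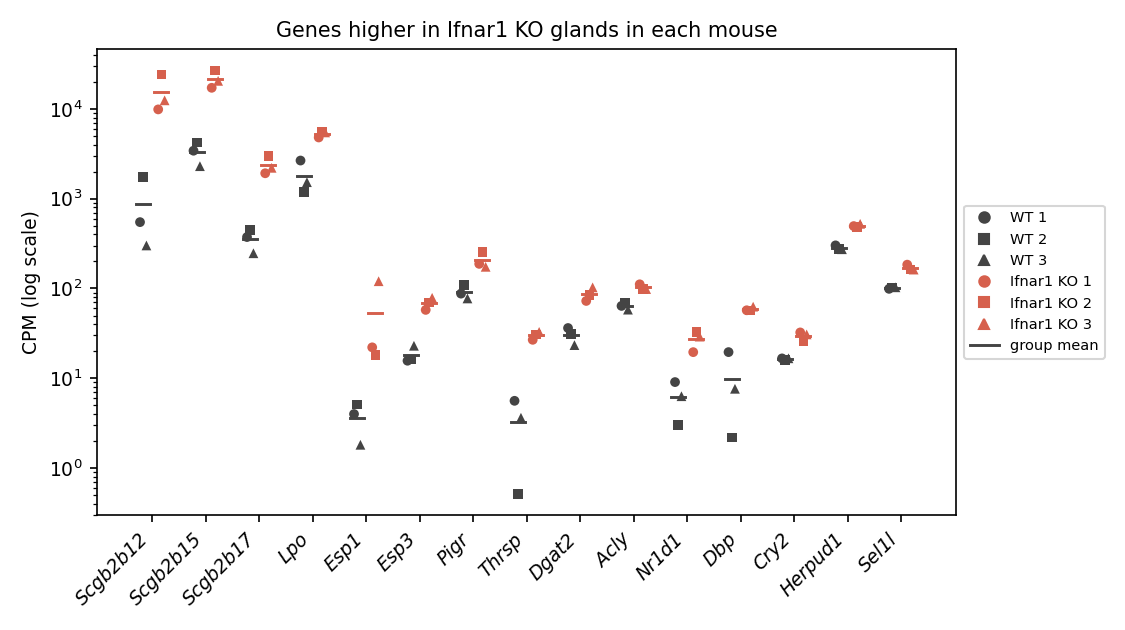
CPM (log scale) of 15 genes called higher in Ifnar1 KO in each of the 3 WT (dark) and 3 Ifnar1 KO (red) glands; symbols give the mouse and bars the group mean. Every KO gland lies above every WT gland for each gene drawn, as it does for 19.3% of all tested genes. Several of the genes drawn were chosen by a rule that required this. *Scgb2b15* runs from 2301 to 4227 CPM in WT and from 17165 to 26795 CPM in Ifnar1 KO, and *Dbp* from 2.20 to 19.6 CPM in WT.

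Among abundant genes, the other 3 of the 5 DE genes with the highest level that were lower encode parts of the small ribosomal subunit. *Rps14* was at 838, 1530.2 and 1141 CPM in the WT glands and 454, 546 and 726 CPM in the Ifnar1 KO glands (log2 fold change -1.02, SE 0.29, adjusted p = 0.0471), *Rps3* at 545, 834 and 608 CPM in WT and 343, 356 and 434 CPM in Ifnar1 KO (log2 fold change -0.81, SE 0.22, adjusted p = 0.0423) and *Rpsa* at 464, 566 and 432 CPM in WT and 305, 307 and 346 CPM in Ifnar1 KO (log2 fold change -0.61, SE 0.17, adjusted p = 0.0483). WT 2, low for immune genes, was the highest gland for each. Of 83 cytosolic ribosomal protein genes tested, a family grouped after its values had been seen, 11 were lower and none higher in edgeR (13.3%, beside 12.4% of all genes). DESeq2 called 20 lower, library size alone 25 and the fit of all 11 mice 26, while edgeR called 1 without Ifnar1 KO 2, and none was called with WT 1 or 3 or Ifnar1 KO 1 or 3 left out.

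Of 15 extracellular matrix genes, *Postn* (periostin, -1.53, adjusted p = 0.0285) and *Dcn* (decorin, -0.80, adjusted p = 0.023) were lower (13.3%, beside 12.4% of all genes; 8 of the 15 were lower without WT 2), and *Col1a1*, the main fibrillar collagen, was not called (0.12, adjusted p = 0.905). Of 18 immediate early genes, which respond within minutes to handling and to stimulation, edgeR called 4 lower, *Btg2* (-1.93), *Klf2* (-2.72), *Zfp36* (-0.91) and *Jun* (-0.97), and *Nr4a1* higher (0.52), beside 12.4% lower and 6.76% higher of all genes. DESeq2 called 10 lower, edgeR called 9 lower without WT 2, and 10 were lower in edgeR at an unadjusted p under 0.05. Among markers of other tissues, 2 of 12 muscle genes were called lower by edgeR (beside 12.4% of all genes), with overlapping groups. All 12 were lower at an unadjusted p under 0.05, 5 were called by DESeq2 and the median was -5.93. Of 4 nerve genes 1 was lower (*Sox10*, -1.36). None of 4 salivary genes (none at an unadjusted p under 0.05, none by DESeq2) or 5 erythroid genes (likewise) was called. Without WT 3, 8 muscle genes were called, and without WT 1 or any 1 KO gland none was; no nerve gene was called without Ifnar1 KO 2, and none of the matrix, immediate early or nerve genes was called with WT 1 or 3 or Ifnar1 KO 1 or 3 left out.

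The 3 Ifnar1 KO glands were also set directly against the 5 Tlr7 KO glands, of the same strain and sex, to show where the KO groups differ from each other. CPM here come from a scaling of these 8 libraries. Of 13935 genes tested, 250 differed (1.79%), 129 lower (0.926%) and 121 higher (0.868%) in Ifnar1 KO. Antiviral ISGs were lower in Ifnar1 KO for 24 of 48 tested, and none was higher (median log2 fold change -1.79 relative to Tlr7 KO). *Irf7* was at 0.94, 2.22 and 0.776 CPM in the Ifnar1 KO glands and 10.8, 30.5, 12.5, 11.1 and 19.3 CPM in the Tlr7 KO glands (log2 fold change -3.67, SE 0.48, adjusted p = 0.00921), *Ifi27l2a* at 1.97, 5.41 and 2.44 CPM in the Ifnar1 KO glands and 14.7, 37.8, 11.2, 12 and 19.9 CPM in the Tlr7 KO glands (log2 fold change -2.54, SE 0.48, adjusted p = 0.0321) and *Lgals3bp* at 3.29, 8.01 and 1.98 CPM in the Ifnar1 KO glands and 20.8, 37.1, 21.2, 21.7 and 26.8 CPM in the Tlr7 KO glands (log2 fold change -2.52, SE 0.38, adjusted p = 0.0139). Every Ifnar1 KO gland was below every Tlr7 KO gland for these 3, but the rule that chose *Irf7* and *Ifi27l2a* required that the groups not overlap. *Usp18* (-3.33) and *Irf9* (-1.45) of the receptor list and *Tlr13* (-1.89) of the sensing list were lower as well, 3 of 19 and 4 of 22 genes of those lists. *Siglec1*, the interferon-induced macrophage receptor, was at 0.157, 0.624 and 0.0388 CPM in the Ifnar1 KO glands and 1.78, 1.86, 1.76, 1.92 and 1.66 CPM in the Tlr7 KO glands (log2 fold change -2.68, SE 0.52, adjusted p = 0.0342).

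None of the 20 GTPase and chemokine genes was called between the KO groups in edgeR, with 10 lower at an unadjusted p under 0.05, 1 called by DESeq2 and a median of -1.36. The same held in edgeR for all 21 B cell, 28 T cell, 20 MHC class I and 12 MHC class II genes, of which 2, 2, 13 and 4 were lower at an unadjusted p under 0.05 and 1, 1, 2 and 0 were called by DESeq2. In other immune lists edgeR called 3 of 18 complement, 3 of 29 chemokine and lymphotoxin and 2 of 20 macrophage genes lower (beside 0.926% of all genes). Leaving out 1 mouse took each of these 3 counts as low as 0. Without Ifnar1 KO 2, where edgeR called 877 of all genes, 7 GTPase and chemokine, 12 MHC class I, 4 MHC class II, 2 T cell and 2 B cell genes were lower. *Cxcl9* was at 0.877, 5.55 and 0.0388 CPM in the Ifnar1 KO glands and 2.77, 11.4, 1.48, 1.92 and 7.18 CPM in the Tlr7 KO glands (log2 fold change -1.18, SE 0.95, adjusted p = 0.57), so the groups overlapped. A lack of calls does not show that the KO groups were alike.

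**Figure D5:**
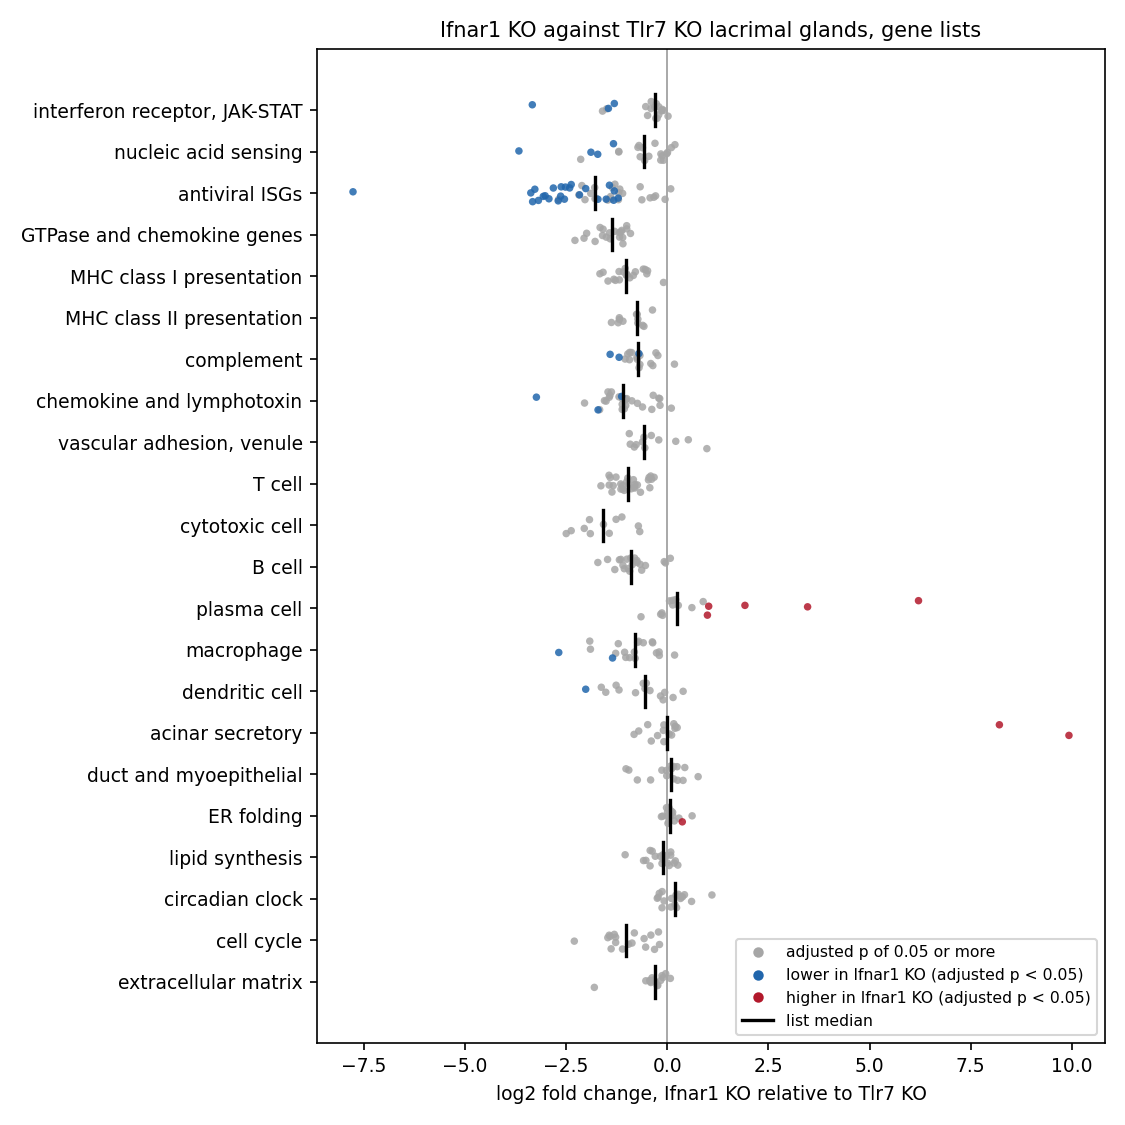
Log2 fold changes of Ifnar1 KO (3 mice) relative to Tlr7 KO (5 mice) for the tested genes of 22 lists, 1 point per gene, blue where lower and red where higher in Ifnar1 KO at an adjusted p under 0.05; black bars mark list medians. Blue points concentrate in antiviral ISGs, 24 of 48, and red points in plasma cell genes, 5 of 16 (beside 0.926% lower and 0.868% higher of all genes).

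Plasma cell genes went the other way, 5 of 16 being higher in Ifnar1 KO and none lower (beside 0.868% and 0.926% of all genes). *Ighg2c* was at 7.3, 22.7 and 4.42 CPM in the Ifnar1 KO glands and 0.0711, 0.0404, 0.0351, 0.115 and 0.587 CPM in the Tlr7 KO glands (log2 fold change 6.21, SE 0.71, adjusted p = 0.00617), *Ighg2b* at 14.7, 37.9 and 12.7 CPM in the Ifnar1 KO glands and 1.71, 2.14, 1.79, 1.3 and 3.03 CPM in the Tlr7 KO glands (log2 fold change 3.47, SE 0.37, adjusted p = 0.0036) and *Jchain* at 175, 327 and 199 CPM in the Ifnar1 KO glands and 133, 135, 115, 109 and 82.5 CPM in the Tlr7 KO glands (log2 fold change 1.02, SE 0.21, adjusted p = 0.0397). For these 3 every Ifnar1 KO gland was above every Tlr7 KO gland, whereas *Igha* (0.89) and *Ighm* (-0.13) had no call. The rule that chose *Ighg2c* and *Ighg2b* required that the groups not overlap. Relative to WT, and with the WT mice shared by both, *Ighg2b* changed by -1.66 (log2) in Ifnar1 KO and by -5.10 in Tlr7 KO. A variable segment, *Igkv12-46*, was also higher in Ifnar1 KO, at 17.9, 16.5 and 10.7 CPM in the Ifnar1 KO glands and 3.52, 5.49, 2.98, 1.8 and 0.929 CPM in the Tlr7 KO glands (log2 fold change 2.34, SE 0.38, adjusted p = 0.0184).

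Outside immune lists, the largest differences without overlap were of other kinds. *Bcl6* was at 5.76, 5.06 and 6.13 CPM in the Ifnar1 KO glands and 51, 29.3, 32.7, 46.7 and 36.8 CPM in the Tlr7 KO glands (log2 fold change -2.80, SE 0.20, adjusted p = 0.000371). *Apobec3*, a cytidine deaminase that restricts retroviruses and is induced by interferon, was at 7.83, 13.2 and 7.41 CPM in the Ifnar1 KO glands and 55.5, 76, 71, 49.9 and 41.4 CPM in the Tlr7 KO glands (log2 fold change -2.63, SE 0.26, adjusted p = 0.00213), and relative to WT it had no call in Ifnar1 KO (-1.03, adjusted p = 0.126) but was higher in Tlr7 KO (1.62, adjusted p = 0.00952). *Mup6*, a major urinary protein, was at 5.48, 6.42 and 7.33 CPM in the Ifnar1 KO glands and 51.5, 44.8, 55.9, 51.4 and 45.1 CPM in the Tlr7 KO glands (log2 fold change -2.96, SE 0.12, adjusted p = 2.45e-06) and relative to WT was near 0 in Ifnar1 KO (-0.06). *Ttc39b*, a regulator of lipid metabolism, was higher in Ifnar1 KO at 71.7, 18 and 39.8 CPM in the Ifnar1 KO glands and 8.78, 10.8, 8.04, 6.74 and 9.63 CPM in the Tlr7 KO glands (log2 fold change 2.30, SE 0.34, adjusted p = 0.013), and *Gm12883* was at 202, 113 and 115 CPM in the Ifnar1 KO glands and 28.5, 28.7, 30.3, 30.2 and 43.4 CPM in the Tlr7 KO glands (log2 fold change 2.16, SE 0.20, adjusted p = 0.00211). Relative to the shared WT mice, Tlr7 KO glands had log2 fold changes of 2.91 for *Mup6* and -2.04 for *Ttc39b*, and Ifnar1 KO glands had 0.24 for *Ttc39b* (adjusted p = 0.717). The calls in the acinar list were *Bpifa2* and *Amy1*, salivary-type genes at high level in Ifnar1 KO 1 and Ifnar1 KO 2 only. The direct comparison called 85 to 144 genes when any 1 Tlr7 KO mouse was left out, 91 without Ifnar1 KO 1, 92 without Ifnar1 KO 3 and 877 without Ifnar1 KO 2, of which 83 to 131, 75, 82 and 245 were among the 250. Antiviral ISGs lower in Ifnar1 KO numbered 4 without Ifnar1 KO 1, 8 without Ifnar1 KO 3, 42 without Ifnar1 KO 2 and 9, 18, 8, 15 and 7 without Tlr7 KO 1 to 5 in turn. Plasma cell genes higher numbered 4 without Ifnar1 KO 2, 3 without Ifnar1 KO 1 or Tlr7 KO 2, and 2 without any of the other mice. With Ifnar1 KO 1 and Ifnar1 KO 2, the KO glands with salivary-type transcripts, left out together, 24 antiviral ISGs were lower, and 2 plasma cell genes were higher and 1 lower; Ifnar1 KO 3 was then the only KO gland of its kind and was assumed to vary like the Tlr7 KO glands.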

How the data were processed

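Total RNA from 1 lacrimal gland per mouse was sequenced. The authors aligned reads to the mouse genome mm10 with HISAT2 2.1.0, quantified transcripts separately with salmon, and deposited estimated counts per gene, rounded to whole numbers and not normalized, for 19058 genes. They deposited a second table of read counts, for 39017 genes, which was used only as an alternative; the tool behind it is not given in the sources used here, and 1 of its columns matched no sample and was not used. Per-library totals were 20512315 to 27174764 estimated counts, and 3 counts in a library equal 0.0924 to 0.142 CPM; such floors cover counting error only. Samples were grouped by the genotype in the labels. The labels do not name separate litters or batches, so p-values measure the spread between these mice.

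Genes with at least 30 counts summed over the 3 WT mice were tested with edgeR 4.0.16 in R 4.3.3 (quasi-likelihood test, TMM scaling over the 6 libraries, Benjamini-Hochberg adjustment over all tested genes). Calls required an adjusted p under 0.05. DESeq2 1.42.0, other scalings and filters, the second table, all 11 mice in a single fit, a replicate block and leaving out each mouse were tried. The code was tested on simulated data. Gene names came from the table and, for 153 of 485 unnamed IDs, from a gene name table; coordinates are those of GENCODE vM21 on GRCm38. Promoters came from RefSeq on GRCm38.p6.

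Named genes were *Ifnar1*, members of gene lists, the 15 genes per direction with the largest changes (DE, at least 2-fold, no overlap of groups, at least 10 CPM in the higher group), the 5 most abundant DE genes per direction, and the 5 genes per direction that differed most from Tlr7 KO under the same limits. The genes compared, the lists and the rules were chosen with earlier results of these data known. Lists were summarised by counts with examples, and some results are not reported here.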

Additional observations from a re-analysis of the deposited data

Results flagged for a closer look

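Members of 2 lists differed between the KO groups by a direct test of Ifnar1 KO against Tlr7 KO glands. In Ifnar1 KO, 24 of 48 antiviral ISGs were lower and 5 of 16 plasma cell genes were higher. Of all genes, 0.926% were lower and 0.868% higher. Of the 14 genes whose 5 Tlr7 KO values are given, 2 had a single mouse far from the other 4. In Tlr7 KO 5, *Gm12883* was at 43.4 CPM against at most 30.3 CPM in the others, a gap of 0.878 of the group's range, and *Ighg2c* was at 0.587 CPM against at most 0.115 CPM, a gap of 0.855 of the range. Both gaps are past Dixon's 95% critical value, which chance alone exceeds in about 5% of groups of 5. The other 4 *Ighg2c* values were at or below the level of 3 counts in those libraries (0.105 to 0.121 CPM), so the size of that gap is uncertain.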

How the results depend on the processing

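The TMM fit of edgeR gave 1735 genes lower and 942 higher in Ifnar1 KO than in WT, of which 1444 and 171 changed at least 2-fold, and these counts stayed within 1.5 times with DESeq2 (2094 and 1262), with no gene filter (1654 and 810) and with the second count table (1650 and 857). With library size only, 51 genes were higher, 38 at least 2-fold. With all 11 mice in a single fit, 2666 were lower and 2458 higher. Leaving out 1 mouse at a time gave from 0 to 2819 lower, 0 to 1847 higher, 0 to 2208 at least 2-fold lower and 0 to 249 at least 2-fold higher. In fits chosen after seeing the data, leaving out both mice richest in salivary-type genes (WT 3 and Ifnar1 KO 2) gave 438 lower and 40 higher, of which 434 and 36 were at least 2-fold, and leaving out both mice with muscle genes (WT 1 and WT 2) gave 309 higher; the lone WT 3 was then assumed to vary like the KO mice. The call on *Ifnar1* itself was lost with library size only (log2 fold change -0.96), no gene filter (-0.60), the second table (-0.61), and the salivary-type mice left out (-0.52), with -0.77 to -0.52 when 1 mouse was left out. With the replicate block, edgeR called 0 genes in either direction and of either size (3787 at an unadjusted p under 0.05), and *Ifnar1* was at -0.59. Same-numbered WT and KO mice did not deviate together (r = -0.154, -0.439 and -0.272). Of all DE genes, 2542 of 2547 kept their sign in the second table and 2670 of 2677 without WT 1 and WT 2; in the other fits none of those tested changed sign.

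Between Ifnar1 KO and Tlr7 KO, 250 genes differed, 129 lower and 121 higher. DESeq2 gave 577 (330 lower, 247 higher, 38 antiviral ISGs lower), library size only 52 lower, the replicate block 533 (405 lower, among them 41 antiviral ISGs and 12 GTPase and chemokine, 15 MHC class I, 10 MHC class II, 10 T cell and 7 B cell genes), and the fit without Ifnar1 KO 1 and 2, in which the lone Ifnar1 KO 3 was assumed to vary like the Tlr7 KO mice, gave 234 lower. Leaving out 1 mouse gave 85 to 877 genes, 36 to 518 lower and 40 to 359 higher. Among the genes named in the text, a direct difference called in either fit changed sign for *Acta1* with the replicate block (5.52), and for *Amy1* (-1.02) and *Bpifa2* (-0.13) without Ifnar1 KO 1 and 2. Of the 250 genes, 246 kept their sign in that last fit, and all did in the others. For numbers 1 to 3 the same-numbered mice of these groups had r = 0.0635, 0.341 and 0.26, and Tlr7 KO 1 correlated best with Ifnar1 KO 3 (0.0682), so pairing by number was not shown. The cause was not tested for any of these changes. Genes with few counts, such as *Ifng*, were below what this depth can compare.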
